A study of Mus musculus with 4 samples.

Results

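The open chromatin around 7 genes of neural progenitor cells was described in mouse embryonic stem cells: Nes, Neurog1, Neurog2, Neurod1, Hes5, Olig2 and Zic1. The genes were chosen by name, and a region was counted for a gene when it overlapped the mm10 gene span or the 50 kb on either side. These windows held 86 of the 170898 regions of the series. A region is the union of peaks that overlap by at least 1 bp in any of 4 libraries, and the 7 windows do not share a region.

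The study measured accessibility by ATAC-seq, in which a transposase inserts adapters into open DNA, with 1 peak list for each library. All 4 libraries came from 2TS22C, a mouse embryonic stem cell line made so that its supply of SOX2 can be shut off, which was kept in 2i serum/LIF medium and given DOX (doxycycline). The SOX17FNV group (2 libraries) carried a lentivirus for SOX17FNV, an engineered form of the endoderm factor SOX17. The SOX2 group (2 libraries) carried a lentivirus for SOX2 itself. The line's own supply of SOX2 was meant to be shut off by DOX in every library, so neither group is an untreated line. Nothing was compared with cells that kept this supply. The labels give 900000 starting cells for each library and call the replicates biological, without saying whether they came from separate transductions, so their spread may be partly technical. Peak lists hold no RNA, and neither the loss of this supply nor the dose of each lentiviral transgene was checked here.

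In the embryo, SOX2 holds cells in the neural progenitor state, and the genes described here mark this state or the steps that follow. NEUROG1 and NEUROG2 are proneural basic helix-loop-helix factors that start neurogenesis, and NEUROD1 acts after them in the differentiating neuron. OLIG2, of the same protein class, patterns motor neuron and oligodendrocyte progenitors. HES5 is a repressor switched on by Notch that holds proneural genes down, ZIC1 is a zinc finger factor of the neural plate and dorsal neural tube, and Nes encodes nestin, the intermediate filament of neural progenitors. Embryonic stem cells are not neural progenitors, and open chromatin at these genes is not a measure of their expression.

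The stretches before 4 of the start sites are shown because they hold the letters that SOX, OCT and Notch factors are known to read, or because no peak reached them. Each runs 5′ to 3′ on the gene's strand over the 250 bases before the start site (RefSeq, GRCm38.p6), and capitals mark the matches of 4 motifs. The motifs are ATTGT (core of SOX sites), CATTGTT (a longer SOX site that contains the core), ATGCAAAT (octamer, read by OCT factors) and GTGGGAA (read by RBPJ, the DNA-binding partner of Notch). Both strands were searched, so ACAAT and TTCCCAC are the reverse reading of the core and of the RBPJ site. The motifs were picked after the sequences had been seen. Neurog1 spans chr13:56252181-56252430, Olig2 chr16:91225300-91225549, Hes5 chr4:154960673-154960922 and Zic1 chr9:91365769-91366018, with Neurog1 and Zic1 on the minus strand. The Hes5 gene span begins upstream of the start site used, at 154960626, so the Hes5 stretch lies inside that span.
Neurog1: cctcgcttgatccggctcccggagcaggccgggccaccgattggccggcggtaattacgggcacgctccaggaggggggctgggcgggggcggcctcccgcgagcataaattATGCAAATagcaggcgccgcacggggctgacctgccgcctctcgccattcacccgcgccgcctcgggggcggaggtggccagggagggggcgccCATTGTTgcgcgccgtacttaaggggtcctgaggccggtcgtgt
Olig2: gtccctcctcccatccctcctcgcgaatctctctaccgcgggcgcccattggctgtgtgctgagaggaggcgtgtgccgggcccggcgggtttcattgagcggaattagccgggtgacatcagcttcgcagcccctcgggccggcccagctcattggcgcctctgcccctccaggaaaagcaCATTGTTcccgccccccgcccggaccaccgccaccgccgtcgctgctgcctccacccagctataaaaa
Hes5: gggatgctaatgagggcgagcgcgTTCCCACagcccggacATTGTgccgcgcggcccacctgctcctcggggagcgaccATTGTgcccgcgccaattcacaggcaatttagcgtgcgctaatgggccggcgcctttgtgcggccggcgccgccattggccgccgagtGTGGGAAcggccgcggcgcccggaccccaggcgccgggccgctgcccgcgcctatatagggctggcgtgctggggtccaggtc
Zic1: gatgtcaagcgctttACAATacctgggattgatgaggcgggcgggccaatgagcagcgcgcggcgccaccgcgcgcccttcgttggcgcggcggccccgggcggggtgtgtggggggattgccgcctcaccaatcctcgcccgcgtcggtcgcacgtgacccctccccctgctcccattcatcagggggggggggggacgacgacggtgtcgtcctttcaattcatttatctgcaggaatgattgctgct

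Neurog1 held an octamer from -138 to -131 and the long SOX site from -44 to -38, counted from the start site. Olig2 held the long SOX site from -68 to -62. Hes5 held 2 RBPJ sites, from -226 to -220 on the reverse strand and from -83 to -77, and 2 SOX cores. Zic1 held 1 reversed SOX core from -235 to -231, and among the genes not shown Nes and Neurog2 held 1 core each while Neurod1 held none. Within the 300 bases of the RefSeq table (250 before to 50 after the start site), the long SOX site stood in 3.78% of all 32851 promoters, the octamer in 1.74%, the RBPJ site in 6.38% and the core in 31.0%. The E-box, CANNTG, was searched too and is not marked. It matched within these 300 bases in Neurog1, Neurod1, Hes5 and Zic1, and in 72.3% of all promoters. A match describes letters and does not show that a factor binds.

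The lists held 120341 and 92851 peaks in SOX17FNV replicates 1 and 2, and 123214 and 96500 peaks in SOX2 replicates 1 and 2. The read depth of the libraries was not known here. Values below are summit pileups, the number of fragments or reads the peak caller stacked at a peak's highest point. The weakest listed summits had pileups of 11 and 10 with SOX17FNV and 12 and 13 with SOX2. The peak caller judges a summit against its local background, so the pileup needed for a call differs between places. A region that is not called may thus hold reads, also at pileups above these values. To compare libraries, each pileup was divided by its library's median over regions called in all 4 lists, which was 33 and 24 with SOX17FNV and 35 and 28 with SOX2. With 2 libraries against 2, the smallest p an exact permutation test can give is 0.333, so no difference below can pass a threshold.

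All 7 genes had open chromatin at a gene end in every library. A peak lay within 1 kb of an end in all 4 libraries for 7 of 7 genes, against 63.5% of 21887 protein-coding genes. The 300-base promoter itself was overlapped in all 4 libraries for 4 of 7 genes (Nes, Neurog1, Neurod1 and Olig2), against 58.4% of 17492 genes. The measures differ, since any of the 21263 promoters of the 17492 genes could count for its gene, while a single promoter was taken for each of the 7. Neurog2 had its promoter overlapped in 3 libraries, Hes5 in the 2 replicate 1 libraries, and Zic1 in none. These peaks were weak for gene ends. Ranked by relative pileup among the 14065 genes that have a merged region called in all 4 libraries at a gene end, Neurod1 stood at percentile 4.68, Zic1 at 6.35, Olig2 at 12.5, Neurog1 at 23.3, Hes5 at 24.9, Neurog2 at 34.4 and Nes at 40.4. With peaks of -log10 q of at least 5, a gene end was called in all 4 libraries only for Neurog1 and Neurog2, and at 10 only for Neurog2.

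**Figure D1:**
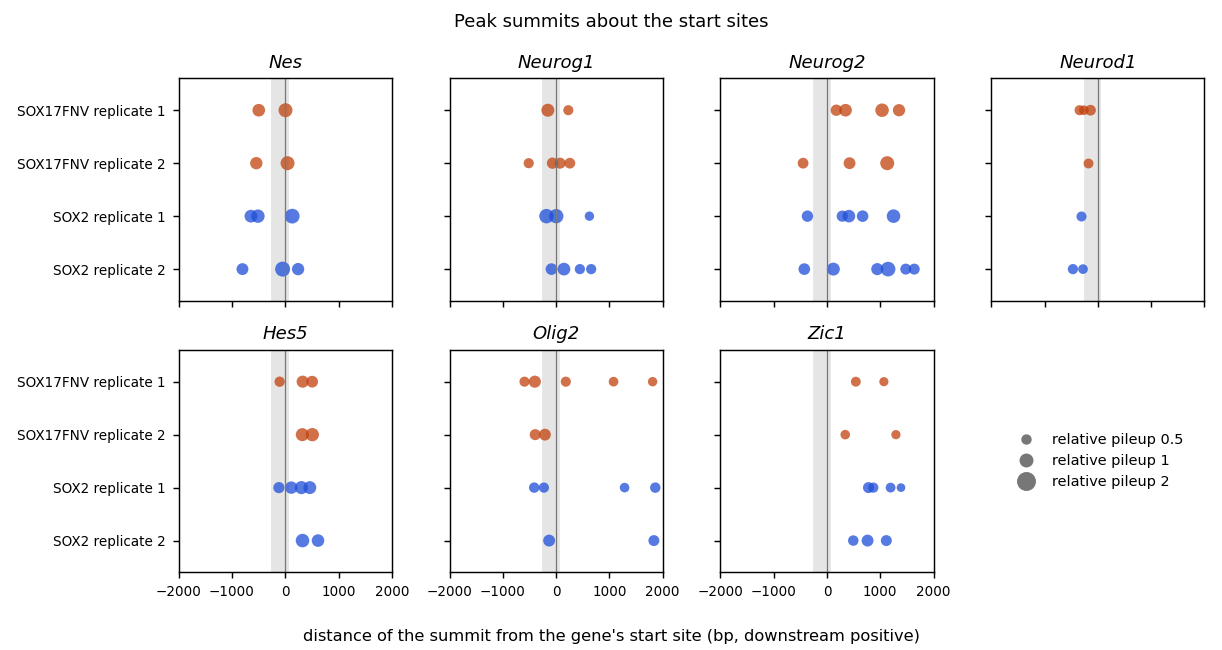
Summits about each start site (x axis, bp, downstream positive) in the 2 SOX17FNV libraries above the 2 SOX2 libraries, with point size by relative pileup and the 300-base promoter shaded. The Zic1 summits all lie downstream of the shaded promoter, and the highest Neurog2 summits lie 1033 to 1248 bp downstream.

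Neurog1 (chr13:56250478-56252180, minus strand) had its start site inside a region called in all 4 libraries, chr13:56251408-56252742. The pileups there were 38 and 21 with SOX17FNV and 50 and 31 with SOX2. The highest summits lay at -156 and -68 bp with SOX17FNV and at -182 and 146 bp with SOX2, about the stretch that holds the octamer and SOX site printed above. Relative pileups were 1.01 ± 0.196 with SOX17FNV and 1.27 ± 0.227 with SOX2 (SD, n = 2 each), and the groups overlapped. The window held 10 regions, 7 of them called in all 4 libraries, and none SOX17FNV-only or SOX2-only, that is, called in both libraries of that group and in neither of the other. Its strongest other region, chr13:56221114-56222683, lay 29497 bp downstream at an end of 4930550C17Rik, with pileups of 49 and 38 with SOX17FNV and 55 and 54 with SOX2. Of the 7 shared regions, 6 had a lower relative pileup with SOX17FNV, and the exception lay 6368 bp upstream (31 and 25 with SOX17FNV, 29 and 25 with SOX2).

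Neurog2 (chr3:127632733-127635636, plus strand) had the broadest region at a member's start, chr3:127633051-127634845, of 1795 bp. Pileups were 41 and 32 with SOX17FNV and 44 and 41 with SOX2, and the highest summits lay 1033 and 1130 bp downstream of the start site with SOX17FNV and 1248 and 1146 bp with SOX2. The relative pileups, 1.29 ± 0.0643 with SOX17FNV and 1.36 ± 0.146 with SOX2 (SD, n = 2 each), overlapped. A second region at the same end, chr3:127632520-127632838, was called in SOX17FNV replicate 2 (pileup 19) and in both SOX2 libraries (31 and 26). This second region covers the first base of the gene span, while the start site used here, 127633136, lies inside the span. Outside the gene, the strongest region was chr3:127639640-127641553, 6504 bp downstream of the start site, with pileups of 28 and 23 with SOX17FNV and 40 and 28 with SOX2. Its relative pileups of 0.903 ± 0.0777 with SOX17FNV did not overlap the 1.07 ± 0.101 with SOX2. Only 3 of the 9 Neurog2 regions were called in all 4 libraries, the lowest share of the 7 genes.

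Neurod1 (chr2:79452637-79456636, minus strand) was open more strongly inside the gene than at its start. The interior region chr2:79453923-79454701, 1935 bp downstream of the start site, had pileups of 35 and 45 with SOX17FNV and 45 and 34 with SOX2. The region at the start, chr2:79456661-79457305, had 26 and 16 with SOX17FNV and 24 and 20 with SOX2, and began 25 bp upstream of the start site. Neither region separated the groups, since in each the libraries of both groups interleaved. The interior region was also the strongest by peak significance outside the gene ends, at a mean list percentile of 90.6, against 46.4 for the start. This percentile ranks a peak by -log10 q within its own list. A SOX17FNV-only region lay 42638 bp upstream outside genes (chr2:79499274-79499580, pileups 19 and 15).

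Olig2 (chr16:91225550-91228677, plus strand) had a start region, chr16:91224850-91225908, with pileups of 33 and 23 with SOX17FNV and 26 and 27 with SOX2. Relative pileups were 0.979 ± 0.0295 with SOX17FNV and 0.854 ± 0.157 with SOX2 (SD, n = 2 each), and the groups overlapped. Weaker regions toward the other end of the gene were called in some libraries only. The region chr16:91226549-91226883 was called in both replicate 1 libraries (21 with SOX17FNV and 22 with SOX2) and in neither replicate 2 library. The region chr16:91227230-91227851 had a pileup of 20 in SOX17FNV replicate 1 and of 26 and 23 with SOX2.

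Every region of the Olig2 window called in all 4 libraries had a higher mean relative pileup with SOX17FNV, and in 3 of 5 the groups did not overlap, against 24.1% of all shared regions higher with SOX17FNV in this way and 28.1% of those within 5 Mb. The farthest upstream, chr16:91180530-91181677 in the long noncoding RNA gene Gm41492, had pileups of 26 and 28 with SOX17FNV and 18 and 16 with SOX2. On the relative scale these were 0.977 ± 0.268 with SOX17FNV and 0.543 ± 0.0404 with SOX2 (SD, n = 2 each), a log2 ratio of 0.82 and the largest of the 41 shared regions. The strongest other region, chr16:91199879-91200528 at an end of Gm41492, had 47 and 37 with SOX17FNV and 43 and 30 with SOX2, a log2 ratio of 0.37. In both of these regions the SOX17FNV libraries stood above the SOX2 libraries without overlap. Both SOX17FNV-only regions of the window also lay upstream. They were chr16:91188436-91188973 in Gm41492 (pileups 20 and 15) and chr16:91211565-91211856, 13694 bp from the start site (13 and 11). The second stood near the weakest summits that those lists hold. The shared region farthest downstream, chr16:91269409-91271455 (log2 ratio 0.05), lies at an end of Olig1. It therefore also counts for Olig1 in the list of other basic helix-loop-helix genes below.

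Hes5 (chr4:154960626-154962372, plus strand) had a start region, chr4:154960724-154961906, with pileups of 33 and 29 with SOX17FNV and 41 and 35 with SOX2. The highest summits were 302 to 507 bp downstream of the start site in the 4 libraries. The stretch printed above was reached only in the replicate 1 libraries, by summits of 24 with SOX17FNV and 30 with SOX2. The region starts downstream of the RBPJ site from -226 to -220 and the SOX core from -210 to -206, so no peak covered these. The relative pileups at the start, 1.10 ± 0.147 with SOX17FNV and 1.21 ± 0.0556 with SOX2 (SD, n = 2 each), overlapped. The strongest other region, chr4:154946181-154946838, lay outside genes at -14085 bp, with pileups of 53 and 37 with SOX17FNV and 41 and 40 with SOX2. There the relative values, 1.61 and 1.54 with SOX17FNV, lay above the 1.17 and 1.43 with SOX2. A larger difference was found at -35145 bp inside Tnfrsf14 (chr4:154925249-154925778), where pileups were 26 and 27 with SOX17FNV and 17 and 18 with SOX2, a log2 ratio of 0.75. The SOX17FNV-only region chr4:155000557-155000813 inside Plch2 had pileups of 11 and 12, close to the lowest in those lists.

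Zic1 (chr9:91358058-91365768, minus strand) was the gene whose shared regions were lowest with SOX17FNV relative to SOX2. Its gene-end region, chr9:91364299-91365456, started 312 bp downstream of the start site and had pileups of 22 and 15 with SOX17FNV and 29 and 27 with SOX2. Relative pileups were 0.646 ± 0.0295 with SOX17FNV and 0.896 ± 0.0960 with SOX2 (SD, n = 2 each), and the groups did not overlap. The same region lies within 1 kb of an end of Zic4, its neighbour of the same family, so it cannot be assigned to Zic1 alone. Inside the gene, chr9:91361365-91362531 had 27 and 19 with SOX17FNV and 33 and 31 with SOX2, again without overlap of the relative values (log2 ratio -0.34). Another such region, chr9:91405715-91406286 in Gm29478, had 12 and 10 with SOX17FNV and 19 and 18 with SOX2 (log2 ratio -0.60). Its SOX17FNV pileups stood near the lowest in those lists, 11 and 10. Of the window's 5 shared regions, 3 were higher with SOX2 without overlap, against 18.4% of all shared regions and 23.4% within 5 Mb. When pileups were divided by each list's background pileup instead, 1 of the 5 was higher with SOX2 without overlap. The one SOX2-only region of the 7 windows was also here, chr9:91386575-91387464 inside Zic4, 20807 bp upstream of the Zic1 start site. Its pileups of 34 and 25 put it at a mean list percentile of 71.0, above the 4.71 to 49.5 of the 5 SOX17FNV-only regions.

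Nes (chr3:87971093-87980451, plus strand) had the most regions in its window, 20, and the highest summit pileups of the 7 genes. At its start, chr3:87970221-87971747, pileups were 44 and 32 with SOX17FNV and 52 and 43 with SOX2, with highest summits from -50 to 130 bp. The relative values there, 1.33 in each library with SOX17FNV and 1.49 and 1.54 with SOX2, did not overlap. The interior region chr3:87973997-87974941 was stronger, with 71 and 56 with SOX17FNV and 69 and 60 with SOX2, and began 2904 bp downstream of the start site. Its relative pileups were 2.24 ± 0.129 with SOX17FNV and 2.06 ± 0.121 with SOX2 (SD, n = 2 each), so the order was the reverse of that at the start. An enhancer inside Nes at which SOX and POU factors act in neural progenitors is well known, and whether this region is that enhancer was not tested. The region at the far end, chr3:87980154-87980658, was called in SOX17FNV replicate 1 alone, with a pileup of 16.

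Farther out, the strongest region of the Nes window by mean list percentile, and of all 7 windows, was chr3:87960194-87961153 at an end of Gm32518, 9940 bp upstream. It had pileups of 69 and 51 with SOX17FNV and 60 and 56 with SOX2 and a mean list percentile of 96.9. The SOX17FNV-only region chr3:87949732-87949983 lay inside Crabp2, which encodes a retinoic acid-binding protein, with pileups of 27 and 18. By -log10 q it was among the weakest calls of SOX17FNV replicate 2, at list percentile 0.0339, and stood at 20.4 in replicate 1. Of 11 shared Nes regions, 5 had SOX17FNV values above the SOX2 values without overlap, against 24.1% of all shared regions and 21.5% of those within 5 Mb. The SOX17FNV values lay below without overlap in 2, against 18.4% and 17.8%.

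**Figure D2:**
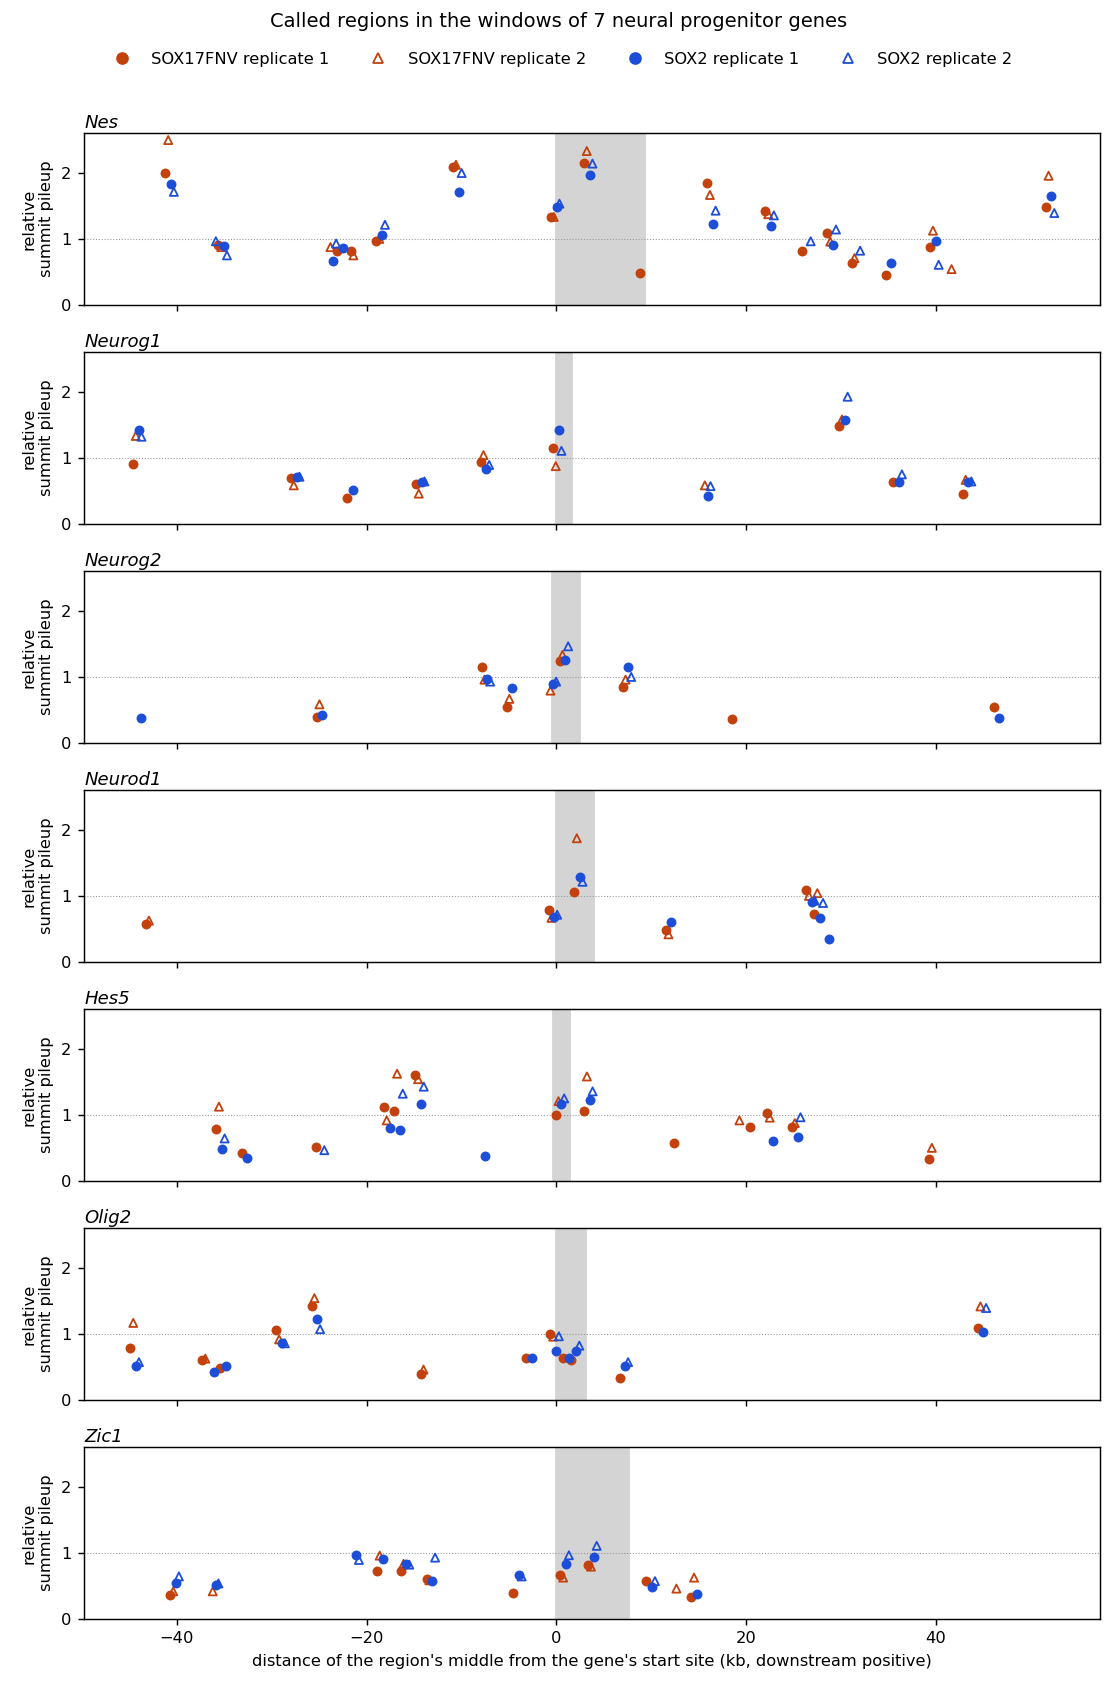
Relative summit pileup (y axis, pileup over the library's median of shared regions) of every called region against the distance from the gene's start site (x axis, kb), with SOX17FNV points in orange and SOX2 points in blue, drawn side by side. The grey band is the gene, and Nes alone has regions with values above 2 in any library.

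Across the 7 windows, SOX17FNV-only and SOX2-only regions were few. SOX17FNV-only regions numbered 5 of 86, or 5.81%, against 3.06% of all regions. SOX2-only regions numbered 1, or 1.16%, against 4.09%. These shares lie on either side of the background, but they rest on 6 regions in all, and 31.4% of all protein-coding genes have a SOX17FNV-only region in a window of this size and 35.7% a SOX2-only region. The counts of SOX17FNV-only and SOX2-only regions also moved with single libraries, since a group of 1 library is easier to meet. Leaving out SOX17FNV replicate 1 gave 8 SOX17FNV-only and 6 SOX2-only regions, and leaving out replicate 2 of that group gave 9 and 5. Without SOX2 replicate 1 they were 12 and 2, and leaving out its replicate 2 gave 6 and 5. With lists cut to equal length they were 3 and 4. None of the 14 regions over, inside or within 1 kb of the genes was SOX17FNV-only or SOX2-only, while 1 was called in a single library.

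Regions called in all 4 libraries numbered 41, or 47.7%, against 33.8% of all regions. By gene, these were 11 of 20 for Nes, 7 of 10 for Neurog1, 3 of 9 for Neurog2, 4 of 7 for Neurod1, 6 of 15 for Hes5, 5 of 13 for Olig2 and 5 of 12 for Zic1. The median protein-coding gene has 16 regions in its window, 6 of them shared. Over, inside or within 1 kb of the genes, 10 of 14 regions were shared (71.4%), against 31 of 72 (43.1%) elsewhere in the windows. The same split over all genes was not computed, so whether it is particular to these genes was not tested. A further 8 regions, or 9.30%, were called in both replicate 1 libraries and neither replicate 2 library, against 6.92% of all regions, and 0 the other way round. The replicate 1 lists are the longer ones in both groups.

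**Figure D3:**
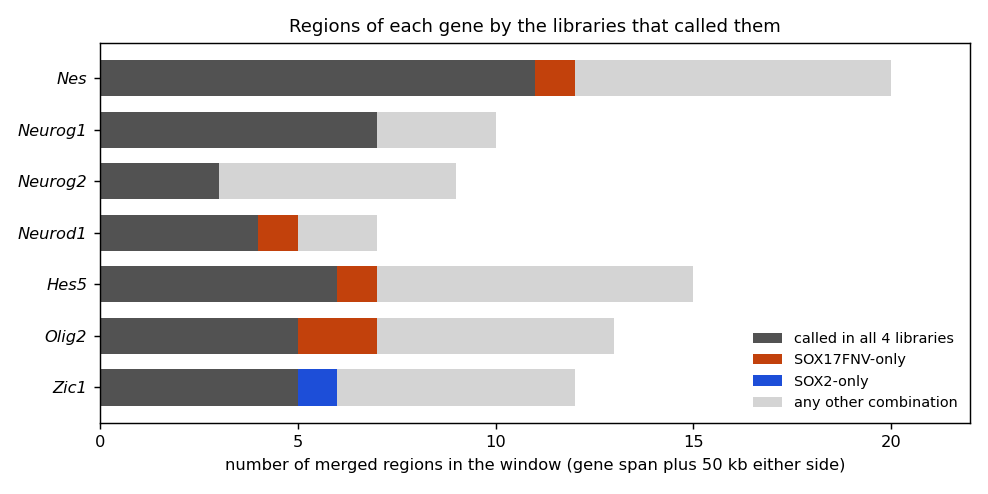
Number of regions in each gene's window (x axis), split into those called in all 4 libraries, SOX17FNV-only, SOX2-only and any other combination. The 5 SOX17FNV-only regions lie at Nes, Neurod1, Hes5 and Olig2 (2), and the 1 SOX2-only region at Zic1.

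As a share of each list, the 7 windows took 0.0632% and 0.0722% of the peaks with SOX17FNV and 0.0601% and 0.0632% with SOX2. The difference of 0.00602 percentage points had an exact two-sided permutation p of 0.667, and the groups overlapped. The number of peaks in the windows was 76 and 67 with SOX17FNV and 74 and 61 with SOX2.

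Among the 41 shared regions, the groups' relative pileups did not overlap in 20. They were higher with SOX17FNV in 12 regions, or 29.3%, against 24.1% of 57783 shared regions, and higher with SOX2 in 8 regions, or 19.5%, against 18.4%. The median log2 ratio over the 41 regions was 0.09, beside 0.04 over all shared regions. The split of 12 with SOX17FNV to 8 with SOX2 depended on the scaling, being 15 to 1 when pileups were divided by each list's background pileup and 8 to 9 when divided by shared regions within 5 Mb. Background scaling adds 0.20 to every log2 ratio and moves the median of all shared regions to 0.24. Both shares were near the background, while the genes differed in direction among themselves.

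The median log2 ratio of SOX17FNV over SOX2 within a window was positive for Olig2 (0.21, 5 of 5 regions positive), Hes5 (0.19, 5 of 6), Neurod1 (0.18, 4 of 4) and Nes (0.13, 9 of 11). It was negative for Zic1 (-0.34, 5 of 5 negative, but -0.14 and 4 of 5 with background scaling). Neurog1 was negative too (-0.21, 6 of 7, but -0.0051 and 4 of 7 with background scaling). So was Neurog2 (-0.08, 2 of 3, but 0.13 with background scaling). Over all shared regions, 55.2% were positive and 44.8% negative. Single libraries moved several of these values. Without SOX2 replicate 1 the median was -0.09 for Hes5, 0.018 for Nes and 0.043 for Neurod1, and without SOX17FNV replicate 2 it was 0.042 for Neurod1. Neurog1 was -0.11 without SOX17FNV replicate 1 and -0.12 without replicate 2 of that group, and in windows of 10 kb Hes5 was -0.07. Among 16143 genes with at least 3 shared regions in such a window, Zic1 stood at percentile 1.60 and Neurog1 at 5.80. At the other end were Olig2 at 87.2, Hes5 at 83.0 and Neurod1 at 81.8, with Nes at 71.3 and Neurog2 at 18.3. Median relative pileups over the 5 Zic1 regions were 0.667 and 0.625 with SOX17FNV and 0.829 and 0.929 with SOX2. Over the 5 Olig2 regions they were 1.06 and 1.17 with SOX17FNV and 0.857 and 0.964 with SOX2. The Neurog1 medians per library, 0.909 and 0.875 with SOX17FNV and 0.829 and 0.893 with SOX2, overlapped and had the higher mean with SOX17FNV, the opposite of the median ratio, so the direction at Neurog1 depends on how its regions are summarised. For Zic1 and Olig2 all values of 1 group lay above those of the other, which gives the smallest p of the exact two-sided permutation test, 0.333, and the same held for Neurod1. For Nes, Neurog1 and Hes5 the exact p was 0.667 and for Neurog2 it was 1.

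The regions around each gene were not all centred on the same ratio. Other shared regions within 5 Mb had a median log2 ratio of -0.04 around Zic1, 0.01 around Neurog1 and 0.08 around Olig2. Around Hes5 the neighbourhood median was 0.15, close to the 0.19 of the Hes5 window, whereas around Neurod1 it was -0.03 and around Nes 0.04. Every gene kept its direction when pileups were scaled by these neighbourhoods. The medians were then -0.27 for Zic1, -0.20 for Neurog1 and -0.11 for Neurog2. They were 0.03 for Hes5, 0.08 for Nes, 0.16 for Olig2 and 0.31 for Neurod1.

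**Figure D4:**
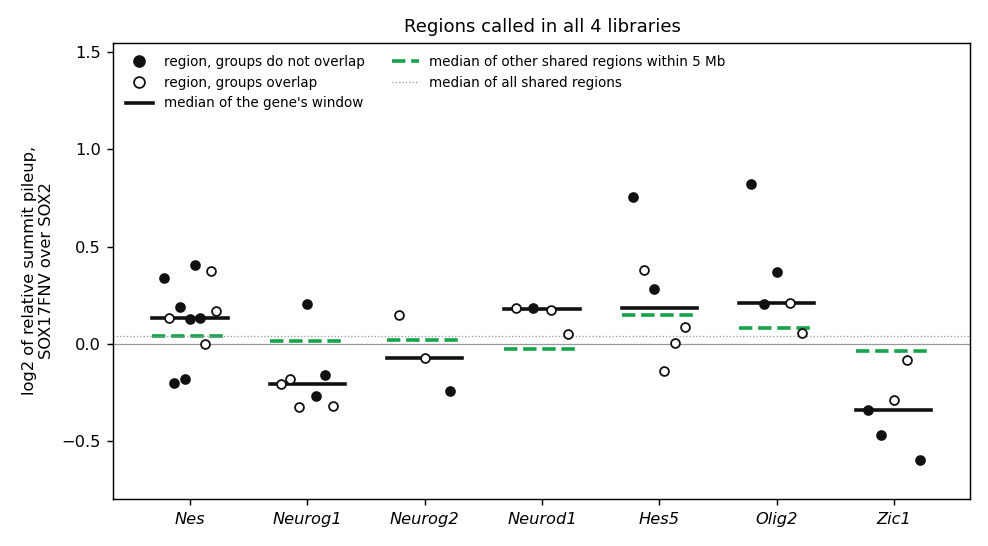
Log2 ratio of relative summit pileup, SOX17FNV over SOX2 (y axis), for each of the 41 shared regions by gene, filled where the groups do not overlap. Black bars are the gene's median and green dashed bars the median of other shared regions within 5 Mb, and all 5 Zic1 regions lie below 0 on this scale while all 5 Olig2 and 4 Neurod1 regions lie above it.

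At the gene ends alone, the ratio was negative for 5 of 7 genes, beside 39.3% of the 14065 genes with a shared region at an end. The values were -0.47 for Zic1, -0.33 for Neurog1, -0.18 for Nes, -0.14 for Hes5 and -0.08 for Neurog2, against 0.05 for Neurod1 and 0.21 for Olig2. With background scaling only Zic1 (-0.27) and Neurog1 (-0.12) were negative, and Nes (0.02), Hes5 (0.06) and Neurog2 (0.13) turned positive. Relative to all shared regions, Nes and Hes5 were lower with SOX17FNV at the start and higher in the median of their windows. The groups did not overlap at the Zic1 and Nes ends and overlapped at the other 5, so 2 of 7 separated with SOX2 higher, beside 18.4% of all shared regions, and 0 with SOX17FNV higher, beside 24.1%. These shares are over shared regions anywhere and not over gene ends alone.

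Related genes were open at their ends to differing degrees. Counts of genes with an end called in all 4 libraries, here and in the lists below, stand beside 63.5% of 21887 protein-coding genes. Group-specific counts are given over the regions of a list's windows, where a region in the windows of several genes counts for each, and stand beside 3.06% SOX17FNV-only and 4.09% SOX2-only over all regions. Of 9 other proneural and neuronal basic helix-loop-helix genes, 6 had an end called in all 4 libraries, and the 80 regions of the list included 2 SOX17FNV-only (2.50%) and 6 SOX2-only (7.5%), Atoh1 having 2 SOX2-only regions. All 10 Notch pathway and HES or HEY genes had an end called in all 4 libraries, with 3 SOX17FNV-only (1.62%) and 6 SOX2-only (3.24%) of 185 regions. All 4 other ZIC genes did too, at a median gene-end percentile of 72.7, well above the 6.35 of Zic1. Among 6 filament, lipid-binding and RNA-binding genes of progenitors, 4 had such an end and Fabp7, which encodes a fatty acid-binding protein of radial glia, had none in any library. The 53 ZIC regions included 2 SOX17FNV-only (3.77%) and 3 SOX2-only (5.66%), and the 113 of the filament list 8 (7.08%) SOX17FNV-only and 5 (4.42%) SOX2-only. In the filament list Msi1, an RNA-binding protein gene, had 5 SOX17FNV-only regions and Vim, the vimentin gene, had 3 SOX2-only regions. Of 10 neural patterning genes 6 had an end called in all 4 libraries, with 2 SOX17FNV-only (1.71%) and 7 SOX2-only (5.98%) of 117 regions. No gene of these lists had an end called in both libraries of 1 group and in neither library of the other. The share of all genes with such an end was not computed.

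For scale, 7 of 8 primitive streak and mesoderm genes had an end called in all 4 libraries, with 0 SOX17FNV-only and 8 SOX2-only (6.40%) of 125 regions. Of 8 housekeeping genes 6 did, with 1 SOX17FNV-only (0.575%) and 9 SOX2-only (5.17%) of 174 regions, and Hprt had no end called. Over the genes with a gene-end region shared by all 4 libraries, the median gene-end percentile was 23.3 for the 7 neural progenitor genes, 21.9 for the proneural list, 30.7 for the streak list and 92.8 for housekeeping genes.

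The marker genes of the labelled cell type were open. All 8 embryonic stem cell markers, among them Pou5f1 and Nanog, had an end called in all 4 libraries, beside 63.5% of protein-coding genes, at a median percentile of 88.6. Of 7 markers of differentiated neurons 4 did, at a median percentile of 36.5, and Dcx, a microtubule protein gene of young neurons, had no region in its window. Of 4 oligodendrocyte markers 2 did. For fibroblasts, which are used as feeder cells, 4 of 6 did and Col3a1 and Postn had none, and for endoderm 3 of 5 did and Gata4 and Dab2 had none. Of 122 regions at the neuron markers, 5 were SOX17FNV-only (4.10%) and 1 was SOX2-only (0.820%). Of 232 at the embryonic stem cell markers, 2 were SOX17FNV-only (0.862%) and 10 SOX2-only (4.31%), so the larger count of each pair lay near the share over all regions. The part of other cell types in the values of the 7 genes was not tested.

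The genes most like each neural progenitor gene were those whose log2 relative pileups at the strongest gene-end region lay nearest over the 4 libraries, among 14064 candidates. Zic4 was at a distance of 0 from Zic1 because both have the same region, followed by Grm6 at 0.0729. Snap47 and Jmjd4 lay at 0.0437 from Nes, P2rx7 at 0.0444 from Olig2, Zbtb12 at 0.0480 from Neurog2, Slc34a2 at 0.0544 from Neurod1, Gtf2h2 at 0.0600 from Hes5 and Cdh7 at 0.0977 from Neurog1. The distance says nothing of shared function.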

How the data were processed

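ATAC-seq peak lists of 4 libraries (SOX17FNV and SOX2, 2 replicates each) were used. Bowtie2, SAMtools and MACS2 with build mm10 are named in the submitters' processing notes; their versions and settings are not stated there. The deposited lists are per library, as the peak names show, with no pooling of replicates. The deposited score is 10 times the -log10 q rounded down. The deposited fold is the peak caller's ratio of summit pileup to local background, and the deposited -log10 p and -log10 q belong to the same summit.

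From these, the whole-number pileup was solved as the one whose fold, (pileup + 1)/(background + 1), gives the deposited -log10 p within 0.001, which held for 100% of summits, and the step was tested on simulated data. Lines with the same interval were taken as 1 peak, and peaks overlapping by at least 1 bp were merged. Gene spans and promoters came from RefSeq GRCm38.p6, the same assembly as mm10, in which all 7 genes were found. Exons were not used here. Regions were compared by counts beside the percentage over all regions and by exact two-sided permutation tests (Python 3.11.15, numpy 2.4.6, pandas 2.3.3, scipy 1.17.1, matplotlib 3.10.9), since peak values are no counts for a model. Summits are the authors' peak maxima, so pileups exist only where a peak was called, and solved values carry counting error.

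The members and gene lists were chosen with earlier results of these data known. Named regions are those at a gene end, the strongest other region by mean list percentile and all group-specific ones; further regions named for their ratio were picked after their values were seen. From the lists, genes with no called end and up to 2 with the most group-specific regions are named.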

Additional observations from a re-analysis of the deposited data

How the results depend on the processing

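Alternatives to the region counts moved them as follows. SOX17FNV-only regions, 5 as reported, numbered 2 with peaks of -log10 q of at least 5, 0 with at least 10, 3 with lists of equal length, 3 with the strongest 50000 peaks of each list, 8 with summits plus and minus 100 bp, 0 in windows of 10 kb, and 6 to 12 when each library was left out in turn, most without SOX2 replicate 1. SOX2-only regions, 1 as reported, numbered 0 with -log10 q of at least 10, 4 with lists of equal length, 0 in windows of 10 kb, and 2 to 6 with a library left out, most without SOX17FNV replicate 1. The direction between the 2 counts therefore turned with lists of equal length. Shared regions, 41 as reported, numbered 22 and 9 at the q limits, 21 with 50000 peaks, 16 in windows of 10 kb, 74 in windows of 100 kb, and 42 to 48 with a library left out. Genes with an end called in every library, 7 as reported, numbered 2 and 1 at the q limits and 3 with 50000 peaks, and genes with the promoter overlapped, 4 as reported, numbered 1, 0 and 2, and 4 to 5 with a library left out. Requiring peaks to cover 25% of a region, or gene ends within 2 kb, moved no count by over 1.5 times.

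Shared regions higher with SOX17FNV, 12 as reported, numbered 4 in windows of 10 kb and 23 in windows of 100 kb. Those higher with SOX2, 8 as reported, numbered 4 and 14, and 1 when pileups were scaled by the background pileup, which moved the median of all shared regions to 0.24 from 0.04. The median ratio turned for Neurog2 (0.058 in windows of 100 kb, 0.13 with background scaling) and for Hes5 (-0.067 in windows of 10 kb, and -0.091 to 0.34 with a library left out, negative without SOX2 replicate 1). It stayed negative for Zic1 (-0.41 to -0.14, and -0.63 to -0.18 with a library left out) and Neurog1 (-0.22 to -0.01, and -0.28 to -0.11). It stayed positive for Olig2 (0.16 to 0.41, and 0.15 to 0.23), Neurod1 (0.03 to 0.38, and 0.04 to 0.26) and Nes (0.08 to 0.34, and 0.02 to 0.15). SOX17FNV-only minus SOX2-only regions turned at Olig2 (-1 with lists of equal length) and at Zic1 (-2 to 1 with a library left out, positive without SOX2 replicate 1). The causes were not tested.

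The share of peaks in the windows differed by -4.1e-05 percentage points in windows of 10 kb and by 0.00152 to 0.0105 with a library left out. With the replicate number as a block the difference was 0.00602, with an exact p of 0.5, the smallest 2 pairs can give. Same-numbered libraries deviated together with a correlation of 0.233 over 57783 shared regions, and the labels do not say what a number shares. Background pileups of 3.91 and 3.27 with SOX17FNV and 4.17 and 5.02 with SOX2 limit which weak regions could be called.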
